A study of Mus musculus with 12 samples.

Results

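In the mouse podocyte line MPC5, 214 of the 55487 genes in the count table were near silent with an empty plasmid and were read repeatedly with a Sparc plasmid. They were chosen by their own counts: at most 20 counts summed over the 6 vector libraries and at least 60 over the 6 Sparc libraries. Of 219 genes that met both thresholds, 5 are described elsewhere and were left out. The members were thus 0.572% of the 37412 genes that were near silent in vector. Because the counts chose them, the contrast between the groups is given here as a description, without a test. The reverse choice, at most 20 counts with the Sparc plasmid and at least 60 with vector, held 0 of 36250 genes.

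Podocytes are epithelial cells that wrap the capillaries of the glomerulus with interlocking foot processes. A gene can be silent in a cell type because its enhancers and transcription factors belong to another tissue, and its promoter may then be packed in closed chromatin or methylated. Promoters of broadly used genes are usually rich in CpG dinucleotides, while promoters of strictly tissue-restricted genes are often poor in them. SPARC is a secreted protein that binds collagen, and the study asks what it does to podocytes in Alport syndrome, an inherited disease of the glomerular basement membrane.

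The vector group was wild-type MPC5 given an empty plasmid and the SPARCoe group was wild-type MPC5 given a plasmid that overexpresses Sparc. Both were harvested at 24 h and sequenced as poly(A)-selected RNA. Whether the 6 libraries within a group are separate cultures is not stated in the labels. The p-values below therefore reflect spread among libraries, possibly technical spread. All comes from 1 cell line and 1 time. In such bulk RNA, a strong change in few cells and a weak change in all cells cannot be told apart.

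Library totals ran from 33051035 to 47296258 counts in vector and from 34927871 to 47380987 in SPARCoe. Sparc itself stood between 740.9 and 772.1 CPM (counts per 1e6 counts) in vector and between 9751 and 10520 in SPARCoe. Of the defining podocyte markers, Nphs1 (nephrin) had 0 counts in vector and 53 in SPARCoe, and Wt1 had 37 and 20. Those were near 0 in this line, whereas Synpo at 66.7 CPM, Podxl at 88.5 CPM and Cd2ap at 325.6 CPM were plainly present in vector. All values below are summed counts, CPM scaled with TMM factors, or the authors' FPKM, a level per gene length that allows genes to be compared.

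The members as a group were read in every SPARCoe library. Their summed level lay between 7.344 and 9.998 CPM in the vector libraries and between 88.08 and 98.43 CPM in the SPARCoe libraries. Between 86 and 119 of the 214 had a count in a vector library, against 211 to 214 in a SPARCoe library. No SPARCoe library was low and none carried the group alone. The other near-silent genes summed to 213.6 to 248.7 CPM in vector and 382.2 to 439.6 CPM in SPARCoe, so their total was also higher in each SPARCoe library, by a smaller ratio.

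**Figure D1:**
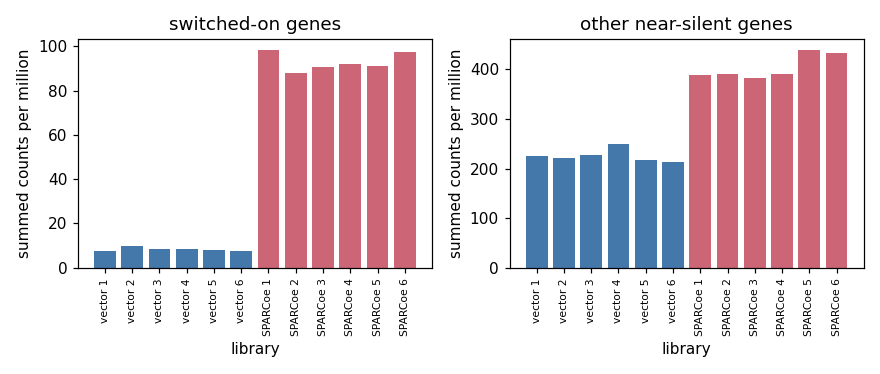
Summed CPM in each of the 12 libraries, for the 214 switched-on genes (left) and for all other genes near silent in vector (right), with vector libraries in blue and SPARCoe libraries in red. The switched-on genes sit between 88.08 and 98.43 CPM in SPARCoe and below 10 CPM in vector, and the other near-silent genes also stand higher in all 6 SPARCoe libraries.

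Member by member the levels were low. The SPARCoe sum ran from 60 to 708 counts with a median of 89, and the vector sum had a median of 9. In 133 members the SPARCoe sum stayed under 100, and it reached 300 in 7. In FPKM the SPARCoe mean ran from 0.0237 to 1.699 with a median of 0.182, and only 5 members reached 1. A count was present in all 6 SPARCoe libraries for 208 members and in 5 of them for the remaining 6. In vector, 16 members had 0 counts and 49 had at most 3.

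For 174 of the 214 members (81.3%), every SPARCoe library stood above every vector library in CPM. Among all 31742 genes with a count, 5.13% did so and 3.51% had every SPARCoe library below every vector library, but the choice of members used the same counts and nothing is read from the difference. The 40 other members overlapped between groups in at least 1 library. The filter on low counts that precedes the edgeR test kept 70 of the members, and it passes such genes through their SPARCoe counts, so edgeR calls are not used for them. Other genes that are faint in vector can pass it in the same way, so their calls below carry that limit.

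**Figure D2:**
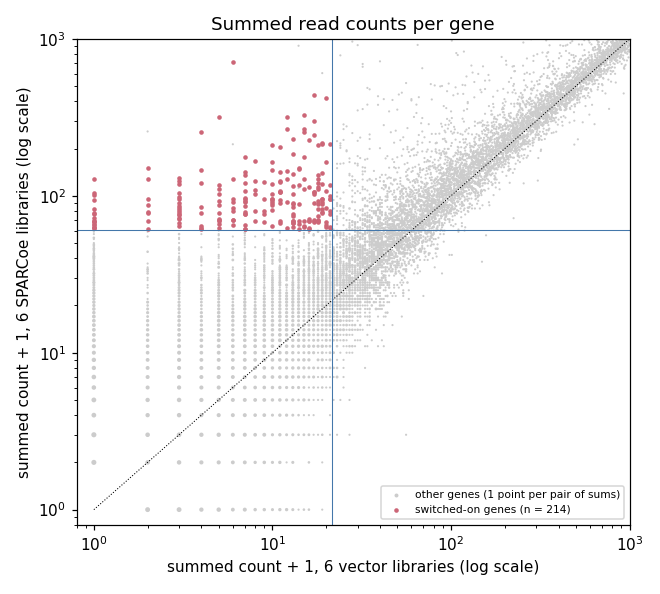
Summed count over 6 vector libraries (x axis) against summed count over 6 SPARCoe libraries (y axis), each plus 1 and on a log scale. Blue lines mark the thresholds of 20 and 60 counts, red points are the 214 members, and the matching corner on the lower right, where genes silenced with the Sparc plasmid would lie, holds no gene with 60 vector counts.

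The thresholds cut through a continuous cloud. Just inside the upper one, Kif1a (an axonal transport kinesin) had 1 vector and 60 SPARCoe counts, the antisense transcript Ptgs2os2 had 3 and 60, and Neurog2 (a transcription factor that starts neuron formation) had 6 and 60. Just outside it, Ifna4 (an interferon alpha) had 0 and 59, Ighg1 (an immunoglobulin constant gene) had 4 and 59, and Dpf3 had 15 and 59. At the vector threshold, Hcar2 with 20 and 214, Scml4 with 20 and 117, and Wnt10b with 20 and 98 were members. Gm13010 with 21 and 93, Rspo3 with 21 and 82, and Gm37415 with 21 and 69 were not. Nphs1, with 0 and 53 counts, missed membership by 7 counts.

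By gene class the members were protein-coding genes far more than their share of silent genes. In the GENCODE M21 annotation 191 were protein-coding, 8 were lincRNAs, 4 were antisense RNAs, 3 were processed transcripts, 3 were unconfirmed loci (TEC), 2 were processed pseudogenes, 1 was a transcribed processed pseudogene, 1 was sense intronic, and 1 ID was not in that annotation. Protein-coding genes that were near silent in vector numbered 8629, of which 2.21% were members. The share was 0.158% of 5056 silent lincRNAs and 0.0243% of 8221 silent processed pseudogenes. Of 1116 silent olfactory receptor genes, 1 was a member, Olfr12, with 10 vector and 107 SPARCoe counts. Short RNAs such as miRNAs (2142 silent genes) had no member, and poly(A) selection would not retain most of them.

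The same lean toward protein-coding genes appeared when genes were binned without using direction, by their count summed over all 12 libraries. With 20 to 80 counts in all, 76.6% of 1597 protein-coding genes had more reads in SPARCoe per total count, and the ratio of their summed counts was 1.815. For pseudogenes in that bin the ratio was 1.11 and for lincRNAs and antisense RNAs 1.274. Without the members, which were chosen for being high in SPARCoe, the protein-coding ratio was 1.709. Among these faint protein-coding genes, 729 stood at least 2-fold higher in SPARCoe and 61 at least 2-fold lower.

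The ratio fell with level. In protein-coding genes it was 1.527 at 80 to 200 counts, 1.27 at 200 to 800, 1.047 at 800 to 4000 and 1.001 at 4000 to 40000. Leaving out the members lowered it to 1.311 at 80 to 200 counts and 1.246 at 200 to 800. In pseudogenes it was 1.045, 1.015, 0.988 and 1.002 in the same bins. Faint protein-coding genes that were no members were thus also higher in sum, and at 4000 to 40000 counts the summed counts differed little. Genes with more than 40000 counts were in no bin.

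**Figure D3:**
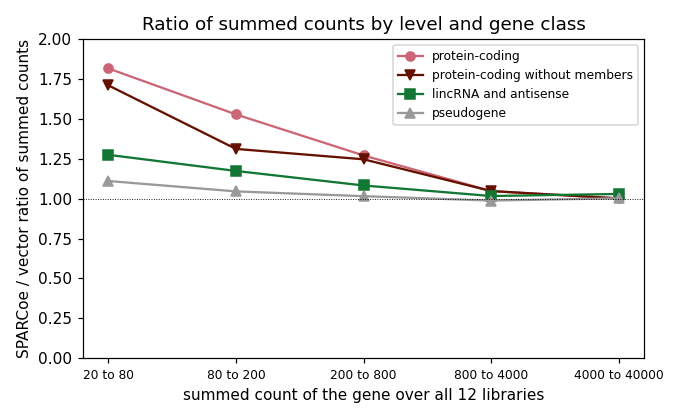
Ratio of summed counts, SPARCoe over vector, scaled by library totals, for genes binned by their count over all 12 libraries, with protein-coding genes in red, the same without the members in brown, lincRNAs and antisense RNAs in green and pseudogenes in grey. The red line falls from 1.815 in the faintest bin to 1.001 in the fullest and the brown line from 1.709 to 1.001, while the grey line stays between 0.988 and 1.11.

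The members' promoters were richer in CpG than those of silent genes that stayed low. RefSeq windows of 250 bases before to 50 after the transcription start, on GRCm38.p6, were at hand for 147 members, the most upstream window being taken where a gene had several. A CpG ratio, observed over expected from the C and G content, of 0.6 or more was found in 34.1% of the 138 protein-coding members with a window (95% Wilson interval 26.7% to 42.3%). It was found in 14.2% of 5969 near-silent protein-coding genes that stayed under 60 SPARCoe counts, and in 21.6% (19.8% to 23.5%) of the 1848 of those that had at least 1 vector count. Among 9851 protein-coding genes that passed the filter for testing it was 73%. The median G plus C content was 57.8% in members, 48.3% in genes that stayed low and 61% in tested genes.

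**Figure D4:**
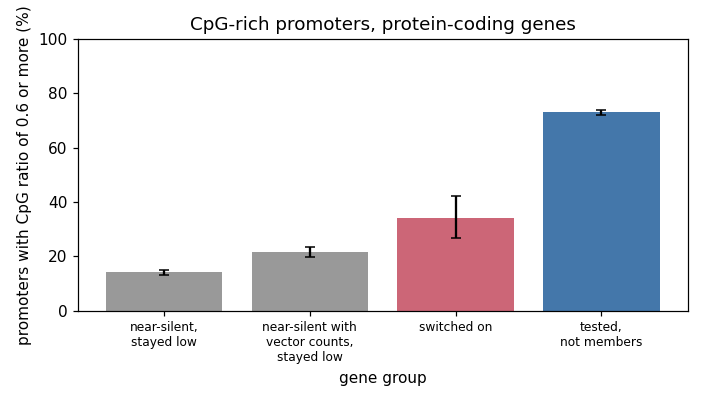
Share of protein-coding promoters (300 bases, RefSeq) with a CpG ratio of 0.6 or more, with 95% Wilson intervals, in 4 groups of genes. The switched-on genes, at 34.1%, lie above both groups of near-silent genes that stayed low, at 14.2% and 21.6%, and below tested genes, at 73%.

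Both ends of that range occur among the members. The windows of 4 members are shown with every CpG dinucleotide in capitals, each 5′ to 3′ on the gene's own strand, to let the CpG-poor and the CpG-rich kind be compared. Cnga3 (chr1:37218028-37218327, plus strand) has 3 CpG and a ratio of 0.16, and Krt14 (chr11:100205981-100206280, minus strand) has 5 and 0.286. Ctsf (chr19:4854915-4855214, plus strand) has 19 and 0.751, and Lmx1b (chr2:33641049-33641348, minus strand) has 24 and 0.766.
Cnga3: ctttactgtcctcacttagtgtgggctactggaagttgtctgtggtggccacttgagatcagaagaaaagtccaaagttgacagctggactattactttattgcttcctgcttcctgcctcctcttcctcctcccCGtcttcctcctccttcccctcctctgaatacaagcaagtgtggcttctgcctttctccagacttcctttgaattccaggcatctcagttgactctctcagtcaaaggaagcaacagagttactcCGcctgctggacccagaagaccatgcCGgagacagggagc
Krt14: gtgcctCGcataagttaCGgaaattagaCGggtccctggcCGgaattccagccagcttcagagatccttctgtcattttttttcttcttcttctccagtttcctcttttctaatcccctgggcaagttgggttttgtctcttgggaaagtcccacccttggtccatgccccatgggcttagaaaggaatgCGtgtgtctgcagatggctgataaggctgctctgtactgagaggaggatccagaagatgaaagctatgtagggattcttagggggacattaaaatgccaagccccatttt
Ctsf: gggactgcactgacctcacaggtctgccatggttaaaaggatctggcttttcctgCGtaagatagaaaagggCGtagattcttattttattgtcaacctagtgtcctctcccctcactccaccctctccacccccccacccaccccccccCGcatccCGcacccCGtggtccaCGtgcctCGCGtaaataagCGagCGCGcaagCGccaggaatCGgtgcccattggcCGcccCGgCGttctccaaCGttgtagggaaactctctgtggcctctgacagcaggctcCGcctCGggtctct
Lmx1b: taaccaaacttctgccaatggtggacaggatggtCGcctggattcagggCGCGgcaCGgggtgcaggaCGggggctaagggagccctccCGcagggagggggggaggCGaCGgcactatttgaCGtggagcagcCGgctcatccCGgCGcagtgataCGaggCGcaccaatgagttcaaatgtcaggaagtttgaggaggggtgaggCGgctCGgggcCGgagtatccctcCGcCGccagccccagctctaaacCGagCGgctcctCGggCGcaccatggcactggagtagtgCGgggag

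Most CpG of Ctsf lie in the latter part of its window, whereas those of Lmx1b run along the whole window. Cnga3 and Krt14, genes of cone photoreceptors and of basal keratinocytes, have long stretches with none. By the GENCODE M21 positions, however, the whole Krt14 window lies downstream of the gene's 5′ end. It may therefore not be the main promoter of Krt14. All 4 members shown stood near 0 in vector and between 0.421 and 1.25 CPM on average in SPARCoe, and so a CpG-rich window was not common to the members.

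Short motifs, searched on both strands, were not common to the members either. The AP-1 site TGANTCA was in 10.1% of protein-coding members' windows, 10.4% of those of silent genes that stayed low and 7.41% of all promoters. The NF-kB site GGGNNTTCC was in 4.35%, 4.46% and 6.09%, and the interferon-stimulated response element in 2.9%, 4.19% and 3.37%. The cyclic AMP element TGACGTCA was in 1.45%, 0.988% and 2.2%, and the E-box CACGTG in 5.8%, 5.14% and 7.67%. The p53 response element was in 0 members' windows and in 1 of 20542 promoters. No factor is judged by these matches, and a motif missing from 300 bases may lie elsewhere.

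Other motifs differed more between these groups, and the part of base composition in this was not tested. The GC box GGGCGG, which contains a CpG, was in 46.4% of protein-coding members' windows, 20.5% of those that stayed low and 42.6% of all promoters. The TATA box letters TATAAA, at any place in the window, were in 9.42%, 22.9% and 13.2%, and CCAAT in 29.7%, 39.1% and 38.3%. CAGCACC, the core of the neuronal silencer element bound by REST, was in 11.6%, 6.73% and 7.17%. The members' share of CAGCACC rests on 16 windows. In tested protein-coding genes the GC box was in 65.3%, TATAAA in 6.82%, CCAAT in 39% and CAGCACC in 7.37%. For CCAAT and CAGCACC the members thus lay outside the range between genes that stayed low and tested genes. Matches of one motif may overlap those of another, and the motifs were chosen after the members were known.

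Cxcl9, the chemokine that draws T cells to sites of interferon gamma, is shown because its window holds matches of both the NF-kB site and TATAAA. The TATAAA match lies in the first part of the window, far upstream of the transcription start. The window also holds AP-1 and CCAAT matches, which are not marked. NF-kB and TATAAA matches are in capitals below (chr5:92328030-92328329, minus strand).
Cxcl9: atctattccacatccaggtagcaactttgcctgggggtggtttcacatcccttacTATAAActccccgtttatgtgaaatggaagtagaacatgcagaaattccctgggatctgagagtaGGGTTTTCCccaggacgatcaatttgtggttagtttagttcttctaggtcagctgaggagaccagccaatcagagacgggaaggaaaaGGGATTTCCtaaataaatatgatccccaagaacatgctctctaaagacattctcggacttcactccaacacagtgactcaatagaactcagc

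Cxcl9 had 3 counts in vector and 84 in SPARCoe, with 0.0738 to 0.453 CPM and a median of 0.387 in the 6 SPARCoe libraries and at most 0.0603 CPM in a vector library.

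Adgrb1 was the member with the most reads. It encodes brain angiogenesis inhibitor 1, an adhesion G protein-coupled receptor of neurons and astrocytes that also binds phosphatidylserine on dying cells. Its level was between 0 and 0.0511 CPM with a median of 0.012 in vector, and between 2.44 and 3.12 CPM with a median of 2.83 in SPARCoe. The groups did not overlap, and the lowest SPARCoe library stood far above the highest vector library. Its summed counts were 5 and 708, a depth-scaled ratio of 136.4 (counting interval 58.2 to 421.5). In FPKM it reached 1.08 ± 0.10 (SD, n = 6). The gene lies on chromosome 15 from 74516195 to 74589465 on the plus strand (GENCODE M21, GRCm38), and no other member lies within 100 kb of it.

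Of the 30 genes of its family in the table, 16 were near silent in vector and 2 of them were members, Adgrb1 and Adgrd1. Adgrd1, an adhesion receptor known as GPR133, had 0 vector and 93 SPARCoe counts, at least 29.9-fold higher against a floor of 3 counts over the group. Of 13 other adhesion receptors that were tested, 2 were called higher and 7 lower by edgeR (adjusted p under 0.05), where 14.9% of all 15734 genes were called higher and 14.1% lower. Those higher were Adgrb2, from 6.07 ± 0.93 to 11.8 ± 1.17 CPM (log2 fold change 0.96, adjusted p = 1.52e-12), and Adgrf5, from 1.98 ± 0.25 to 2.82 ± 0.50 CPM (0.51, adjusted p = 0.00352; SD, n = 6 each). Adgra2, an expressed endothelial Wnt7 coreceptor, was lower, from 173 ± 5.29 to 135 ± 2.92 CPM (-0.36, adjusted p = 7.6e-17). Leaving the members out, the 14 other near-silent adhesion receptors summed to 0.0463 to 0.506 CPM in vector and 0.488 to 0.974 CPM in SPARCoe, ranges that overlapped slightly.

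Sncaip encodes synphilin-1, a protein found in Lewy bodies. It stood at 0 to 0.0506 CPM in vector, where the median was 0, and at 0.716 to 1.26 CPM with a median of 1.03 in SPARCoe. Its sums were 3 and 254 counts, a ratio of 81.6 (counting interval 27.6 to 398.3). The groups did not overlap. Sncg, gamma-synuclein, was a member too, with 5 and 95 counts and 0.232 to 0.566 CPM in SPARCoe. Sncb, beta-synuclein, was at 0 in all 12 libraries. Of 7 other tested genes in the list of synuclein partners, 3 were called higher. These were Siah1b (log2 fold change 0.23), Siah2 (0.23) and Lrrk2 (0.16), all expressed genes, with adjusted p of 9.13e-05, 0.00051 and 4.39e-05 by edgeR.

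Cnga3 encodes the alpha subunit of the cyclic nucleotide-gated channel of cone photoreceptors. It stood at 0 to 0.0506 CPM in vector and at 1.06 to 1.47 CPM with a median of 1.21 in SPARCoe, without overlap. Its sums were 4 and 316 counts, a ratio of 76.1 (counting interval 29.4 to 281.1). Its CpG-poor window is printed above. Of 10 channels of the cyclic nucleotide-gated and HCN families, 7 were near silent and Cnga3 was the 1 member. The beta subunit with which it forms the cone channel, Cngb3, had 0 vector and 2 SPARCoe counts. Cngb1, the rod beta subunit, rose from 0.133 ± 0.110 to 0.505 ± 0.228 CPM (SD, n = 6), a log2 fold change of 1.85 (edgeR adjusted p = 0.00161), and Hcn2 from 1.43 ± 0.45 to 1.95 ± 0.31 CPM (log2 fold change 0.47, adjusted p = 0.0353).

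**Figure D5:**
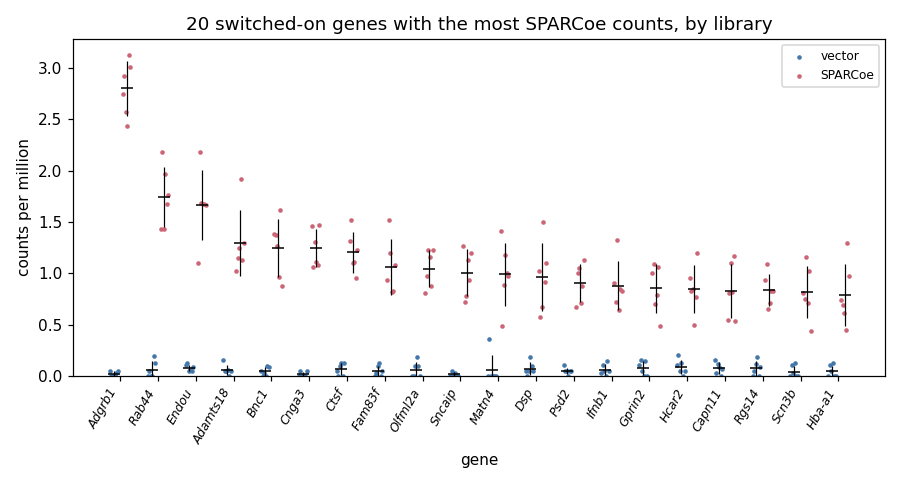
CPM of the 20 members with the most SPARCoe counts, 1 point for each library, with vector libraries in blue and SPARCoe libraries in red, a dash for the mean of 6 libraries and a line for 1 SD on each side. Adgrb1 stands between 2.44 and 3.12 CPM in SPARCoe, and none of the 20 genes has a SPARCoe library below its highest vector library.

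By their best-known tissue the members were scattered. Tissues and roles were assigned by hand from general knowledge to 192 of the 214, with the names in view, and 132 of them fell in a tissue group. The nervous system group held 37 members, blood, immune cells and vessels 20, gut, liver and pancreas 13, surface epithelium 13, germ line and cilia 12, muscle 11, sensory organs 9, kidney 6, cartilage and connective tissue 6, and embryo patterning 5. The median SPARCoe level lay between 0.276 and 0.424 CPM in every group. The rule set a floor under these levels, so they are not compared between tissues. Only members were assigned, so the counts per tissue or kind of product have no share over all silent genes beside them.

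The 37 genes of the nervous system included receptors, channels and transcription factors. Scn3b, an auxiliary subunit of neuronal sodium channels, stood at 0 to 0.121 CPM in vector and 0.44 to 1.16 CPM with a median of 0.778 in SPARCoe. Psd2, an exchange factor for ARF6 in brain, stood at 0 to 0.102 and 0.668 to 1.12 CPM, and Gprin2, a partner of G protein alpha subunits in neurite growth, at 0 to 0.152 and 0.489 to 1.09 CPM. Rgs14, a regulator of G protein signalling in hippocampal neurons, stood at 0 to 0.181 and 0.653 to 1.09 CPM. In each of these 4 genes the groups did not overlap.

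Lower in the group, the potassium channel gene Kcnq3 had 6 vector and 140 SPARCoe counts and the calcium channel gene Cacna1e had 1 and 127. Unc5a, a netrin receptor, had 0 and 76, and Wnk2, a kinase that regulates chloride transport, had 0 and 67. Necab2, a calcium-binding protein of striatal neurons, had 0 and 71. Rbfox3, which encodes the neuronal nuclear antigen NeuN, had 4 and 65. These genes were named by rank or by role after their values were seen. Of 24 near-silent genes in a neuron and synapse list, 16 had more reads per total count in SPARCoe and 3 had fewer. Rbfox3 was the 1 member, and Nefl, Slc32a1 and Gria2 were among those at 0 in all 12 libraries. Without Rbfox3 the list summed to 0.101 to 0.341 CPM in vector and 0.287 to 1.42 CPM in SPARCoe. Of 13 tested genes of that list, 2 were called higher and 2 lower. Those higher were Gap43, a growth cone protein, from 1.45 ± 0.32 to 2.66 ± 0.54 CPM (edgeR adjusted p = 2.53e-05), and Cacna1b, a calcium channel of nerve endings, from 3.64 ± 0.29 to 6.81 ± 0.47 CPM (adjusted p = 7.2e-11; SD, n = 6). The part of other cells in these values was not tested.

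Genes of the blood, immune and vessel group covered several lineages. Rab44, an unusually large Rab GTPase found in mast cells and osteoclasts, stood at 0 to 0.192 CPM in vector and 1.43 to 2.18 CPM with a median of 1.72 in SPARCoe. Ifnb1, interferon beta, the first interferon that infected or DNA-sensing cells secrete, stood at 0 to 0.144 CPM and 0.64 to 1.33 CPM with a median of 0.84. Neither overlapped between groups. In FPKM, Ifnb1 reached 1.17 ± 0.32 (SD, n = 6), among the 5 highest members. Selplg, the leukocyte ligand of P-selectin, had 14 and 176 counts, Ciita, the master regulator of MHC class II genes, had 17 and 91, and Oas1f, a member of the interferon-induced oligoadenylate synthetase family with near-identical relatives, had 4 and 102.

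Hba-a1, alpha globin, stood at 0.443 to 1.29 CPM in SPARCoe against 0 to 0.121 in vector. Its near-identical copy Hba-a2 was listed at 0 in all 12 libraries, so how reads were shared between the copies is uncertain. Vwf, von Willebrand factor of endothelium and platelets, had 17 and 112 counts. Markers of these cells did not all move together. The leukocyte genes had 24 and 41 counts (Ptprc), 0 and 14 (Itgam) and 1 and 2 (Cd3e, of T cells). The endothelial gene Pecam1 had 41 and 42 counts, and Cdh5 had 40 and 89. Of 29 near-silent genes in the leukocyte list none was a member, but 17 had more reads per total count in SPARCoe and 3 had fewer. Cd4, Cd8a and Tyrobp were among 9 at 0 in all libraries. That list summed to 0.0759 to 0.697 CPM in vector and 0.366 to 1.11 CPM in SPARCoe. Of its 9 tested genes, Cd14, a lipopolysaccharide receptor, was called higher, from 5.83 ± 0.59 to 8.83 ± 0.92 CPM (edgeR adjusted p = 1.94e-07), and Csf1r lower, from 8.3 ± 0.83 to 4.58 ± 0.50 CPM (adjusted p = 1.23e-10; SD, n = 6). Of 12 tested genes of the endothelium list, Eng, Robo4 and Tek were called higher and Kdr, Flt1 and Ecscr lower. Robo4 went from 0.121 ± 0.092 to 0.933 ± 0.341 CPM (adjusted p = 3.56e-08) and Flt1 from 41.3 ± 1.6 to 30.4 ± 1.59 CPM (adjusted p = 3.05e-12).

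Surface epithelium gave keratins, junction proteins and a transcription factor. Bnc1, basonuclin, a zinc finger protein of basal keratinocytes and germ cells, stood at 0 to 0.0961 CPM in vector and 0.88 to 1.61 CPM with a median of 1.32 in SPARCoe. Dsp, desmoplakin, which ties keratin filaments to desmosomes, stood at 0 to 0.181 and 0.573 to 1.5 CPM. Krt14, the keratin of basal cells, had 8 and 121 counts, Krt16, a keratin of stressed epidermis, had 6 and 106, and Krt15 had 0 and 62. Krt5, the partner with which Krt14 forms filaments, was not silent in vector and rose from 0.269 ± 0.118 to 0.708 ± 0.151 CPM (SD, n = 6), a log2 fold change of 1.43 (edgeR adjusted p = 0.000244).

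Of 21 near-silent genes in the list of stratified epithelium, 3 were members, the keratins just named. Krt1, Krt6a, Krt6b, Klk5, Klk7 and Krtdap were at 0 in all 12 libraries. Of 15 tested genes that were not members, 4 were called higher and 1 lower. Evpl, envoplakin of the cornified envelope, had the largest log2 fold change among the 4, from 2.26 ± 0.36 to 24 ± 0.76 CPM (3.42, adjusted p = 4.09e-33).

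In the sensory group, Trpv1, the heat and capsaicin channel of pain neurons, stood at 0 to 0.0721 CPM in vector and 0.443 to 0.801 CPM in SPARCoe. Pou4f3, a transcription factor of inner ear hair cells, had 0 and 127 counts, at least 40.8-fold higher against the floor. Tas1r2, a subunit of the sweet taste receptor, had 11 and 143. Of 27 near-silent genes of photoreceptor and retina, Cnga3 was among the members, and Opn1mw, Gngt1, Nrl, Guca1a, Guca1b, Rp1 and Rpe65 were at 0 throughout. Of 9 other tested genes of that list, 4 were called higher. Pde6g, the inhibitory subunit of rod phosphodiesterase, had 22 vector counts, close to the threshold, and 149 in SPARCoe (log2 fold change 2.68, adjusted p = 6.34e-07). As with members, a gene so faint in vector can pass the filter through its SPARCoe counts.

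Muscle genes were structural and mostly faint. Myl2, the ventricular myosin light chain, had 0 and 103 counts and 0.170 to 0.859 CPM in SPARCoe. Ckm, muscle creatine kinase, had 1 and 68, a ratio of 65.5 (counting interval 11.4 to 2626). Myh6, the atrial myosin heavy chain, had 2 and 63 counts, but 74.6% of the latter came from SPARCoe replicate 6. Of 25 near-silent muscle genes these 3 were members. Myh1, Myh8 and Myf5 were at 0 in all libraries, and Myod1, which sets muscle identity, had 0 and 5. Among 12 tested muscle genes 3 were called higher. The calcium store genes Casq2 (log2 fold change 2.87, adjusted p = 3.16e-09) and Ryr1 (2.44, adjusted p = 2.01e-12) led them.

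Kidney gave 6 members. Lmx1b, the transcription factor of podocyte and limb identity that is mutated in nail-patella syndrome, stood at 0 to 0.139 CPM in vector and 0.196 to 0.569 CPM with a median of 0.436 in SPARCoe. Its groups did not overlap, and its CpG-rich window is printed above. Slc34a1, the phosphate transporter of the proximal tubule, had 2 and 74 counts, Slc34a3, another of that family, had 5 and 79, and Slc13a3, a dicarboxylate transporter, had 0 and 65. The inositol transporter Slc5a11 had 6 and 96, and the betaine transporter Slc6a12 had 9 and 91, with overlap between its groups. Of 12 near-silent tubule genes, Slc34a1 was the 1 member, and Umod and Kap were at 0. Of 8 tested tubule genes, 6 were called lower.

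Germ line, gut and connective tissue genes completed the range. Capn11, a calpain of testis, stood at 0 to 0.153 CPM in vector and 0.538 to 1.17 CPM in SPARCoe, and Gdf9, a growth factor of oocytes, had 15 and 68 counts. Of 27 near-silent genes of testis and germ line, 15 had more reads per total count in SPARCoe and 5 had fewer, with 2 and 38 counts of the meiotic recombinase Dmc1 and 0 and 2 of Dazl. Of 4 tested genes of that list, 2 were called higher, Tex15 from 4.61 ± 0.48 to 12.1 ± 1.44 CPM (edgeR adjusted p = 1.13e-17) and Piwil2 from 0.231 ± 0.125 to 0.768 ± 0.308 CPM (adjusted p = 7.2e-05; SD, n = 6). Ddx4, another germ cell gene, had 42 and 34 counts. Npc1l1, the intestinal cholesterol transporter, had 18 and 138, and Muc5ac, a stomach and airway mucin, had 4 and 70. Of 35 near-silent genes of liver and intestine none was a member. Among them 17 had more reads per total count in SPARCoe, 3 had fewer, and 15 were at 0 throughout. Matn4, matrilin 4 of cartilage, stood at 0 to 0.354 CPM in vector, where 1 library held all 14 counts, and 0.487 to 1.41 CPM in SPARCoe. Smoc2, a secreted relative of SPARC, had 0 and 61 counts, while Smoc1 had 7 and 54 and Sparcl1 was listed at 0.

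Across all tissue lists together, 469 genes were in the table and 291 were near silent, of which 13 (4.47%) were members. For protein-coding genes in general the share was 2.21%. Of the 291, 176 had more reads per total count in SPARCoe and 34 had fewer. Among all 8629 silent protein-coding genes, 3299 had more and 1039 had fewer, the rest being at 0 in both groups or level.

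Several of the most read members belong to no one tissue. Endou, an endoribonuclease that cuts at uridines, stood at 0.0463 to 0.127 CPM in vector and 1.10 to 2.18 CPM with a median of 1.68 in SPARCoe. Adamts18, a secreted metalloprotease, stood at 0 to 0.153 and 1.03 to 1.92 CPM. Ctsf, cathepsin F, a lysosomal protease, stood at 0 to 0.128 and 0.956 to 1.52 CPM, and its window is printed above with the CpG-rich ones. None of the 3 overlapped between groups. In FPKM, Ctsf stood at 1.22 ± 0.20, below the predicted gene Gm11399 at 1.70 ± 0.46 and Hba-a1 at 1.33 ± 0.50 (SD, n = 6), and the spreads of Ctsf and Hba-a1 overlapped. Gm11399 overlaps the expressed gene Sfi1 on the other strand, so its reads cannot be told apart from those of Sfi1. Fam83f had 11 and 265 counts, Olfml2a, a secreted olfactomedin-domain protein, had 14 and 264, and Hcar2, the receptor for niacin and ketone bodies, had 20 and 214.

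By kind of product, 26 members encode enzymes, 21 cytoskeletal, motor or junction proteins, 19 transcription factors or cofactors, 15 matrix or other secreted proteins, 13 intracellular signalling proteins, 12 ion channels, 12 receptors, 9 membrane transporters and 7 cytokines or growth factors. Ion channels had the highest median SPARCoe level of these kinds, at 0.489 CPM, with 0.286 to 1.25 CPM across the 12. The choice of members used these levels, and nothing is read from their order. The transcription factors had a median of 0.345 CPM. Among them, the known regulators of neuron type Lhx5, with 4 and 110 counts, and Foxn4, with 2 and 85, stood beside Pax5 of B cells, with 2 and 80, and Prdm16 of brown fat, with 0 and 68. The cytokines and growth factors were Ifnb1, Fgf9, Wnt10b, Cxcl9, Il1f6, Gdf9 and Areg.

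Members lay on all chromosomes but Y. Of the near-silent protein-coding genes on a chromosome, members made up most on chromosome 5, with 18 of 400 (4.5%), and fewest on X, with 4 of 532 (0.752%). On chromosome 15, where Adgrb1, Endou and Fam83f lie, they were 10 of 264 (3.79%). Chromosomes differ in families of silent genes such as olfactory receptors, and no test was made.

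Some members were neighbours of each other. In 11 runs, 24 members lay within 100 kb of the next. Trpv1 and Trpv3, a warmth channel of keratinocytes, lie head to tail on chromosome 11 from 73234292 to 73300363, 6.15 kb apart and both on the plus strand. Trpv3 had 14 and 110 counts. Vwf and Ano2, a calcium-gated chloride channel of olfactory neurons, lie 3.74 kb apart on chromosome 6, and Ano2 had 17 and 109 counts. Lrrc3 and Trpm2, a calcium channel opened by ADP-ribose, lie 5.19 kb apart on chromosome 10, with 2 and 75 and with 11 and 126 counts. Krt15, Krt14 and Krt16 lie on chromosome 11 from 100131758 to 100248902, with gaps of up to 67.2 kb, and the tested gene Gm11598 between them was not called. Where members adjoin on the same strand, reads that run past the end of one could be counted for the next, and this was not tested.

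The other runs mixed unrelated functions. They were Rgs14 with Slc34a1 on chromosome 13, Efs with Myh6 on chromosome 14, Elfn2 with Mfng and the predicted genes Gm49593 with Gm49552 on chromosome 15, Ttc39d with Arhgef33 on chromosome 17, Matn4 with Rbpjl on chromosome 2, and Hhatl, Ccdc13 and Gm47113 on chromosome 9. Matn4 and Rbpjl overlap on opposite strands, so their reads cannot be assigned without the counting strand, which is not given in the sources used here. Across the Ttc39d run, 4 tested genes lay between and none was called. Between Gm49593 and Gm49552, however, Kcnj4, an inward rectifier potassium channel, was called higher, from 1.13 ± 0.30 to 5.66 ± 0.66 CPM (edgeR adjusted p = 4.55e-18, log2 fold change 2.33). In the Hhatl run, Higd1a was called higher, from 16.9 ± 1.3 to 19 ± 1 CPM (adjusted p = 0.0147, log2 fold change 0.17; SD, n = 6).

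Genes next to members were compared with edgeR, since the rule did not use them. The nearest tested gene that was no member gave 207 distinct neighbours, of which 59 (28.5%) were called higher and 32 (15.5%) lower, where 14.5% of all tested non-members were called higher and 14.2% lower. A log2 fold change of at least 1 was found in 10.1% of the neighbours and in 2.91% of all non-members. Around protein-coding members alone, 46 of 186 neighbours (24.7%) were called higher. Around near-silent protein-coding genes that stayed low it was 15.6% of 3730, and 16.2% of 2159 around those with at least 1 vector count. No test was made of these shares, since neighbours of different genes can coincide. Neighbours that are faint in vector can also pass the filter through their SPARCoe counts.

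Of the 5 called neighbours with the largest changes, all stood under 0.5 CPM in vector. They included Casq2, Chrm1 (a muscarinic receptor of neurons), Slpi and a Rik gene. Slpi, a secreted protease inhibitor of epithelia, lies 298 bases from Matn4 and went from 0.324 ± 0.107 to 1.98 ± 0.37 CPM (SD, n = 6), a log2 fold change of 2.59 (edgeR adjusted p = 3.75e-13). Outside those 5, and picked after their values were seen, Olfr1410, an olfactory receptor 2982 bases from the member Olfr12, stood at 0.121 and 0.706 CPM (log2 fold change 2.53, adjusted p = 1.83e-06). Atf3, a stress-induced transcription factor 5479 bases from Fam71a, stood at 21.8 and 68.3 CPM (1.65, adjusted p = 1.68e-32).

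For the 3 members named first, the nearest tested genes differed. Arc, an activity-induced gene of neurons 79618 bases from Adgrb1, rose from 13.4 ± 1.5 to 17.9 ± 0.43 CPM (log2 fold change 0.41, adjusted p = 4.1e-07). Inpp4a, 36481 bases from Cnga3, was not called (-0.11, adjusted p = 0.167). The nearest to Sncaip was a faint predicted locus 190384 bases away, at 0.439 CPM in vector and 0.807 in SPARCoe (0.85, adjusted p = 0.00947). Rab44 lies 13418 bases from Cdkn1a, a p53 target that was called higher by a log2 fold change of 0.14 (adjusted p = 1.96e-05). Neither Ctsf nor Endou had a called neighbour.

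Overlap with another gene was a limit for some members. A tested non-member overlapped 23 of the 214, and in 6 of these it was called higher. They included Gm43744 inside Synpo2 (log2 fold change 2.24), 4632404M16Rik at Casq2 (2.87), 1600029O15Rik at Islr2 (2.49) and Gm11399 at Sfi1 (0.53). For such pairs, reads of the partner cannot be told apart from reads of the member. Adgrb1, Sncaip, Cnga3, Ctsf and Endou overlapped no tested gene.

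Libraries within SPARCoe varied more than independent counts would give. The chi-square of a member's 6 SPARCoe counts against library totals, per degree of freedom, had a median of 2.387, and 2.203 in 4373 other genes of the same count range. Adgrb1 was at 1.03 and Cnga3 at 1.19, close to the value of 1 that independent counts give. Among member counts of 1 to 10, 71.2% of 995 were even, so counts do not all stand for separate fragments and the counting intervals above are too narrow. Such counting also raises the chi-square, and how much of it is spread among libraries was not tested. The largest library held a median of 25.2% of a member's SPARCoe counts.

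In 6 members 1 library held over 40% of the SPARCoe counts. These were Myh6, Pld4 (an endosomal nuclease), Ccdc13, Necab2, Mesp2 (a somite transcription factor) and Prr15l. Pld4, with 2 and 123 counts, ranged from 0.0421 to 1.22 CPM in SPARCoe, and Mesp2, with 5 and 69 counts, from 0.0954 to 0.714. Only for Myh6 does the summed count describe 1 library more than the group. In the others the remaining libraries together held more counts than the largest. Without SPARCoe replicate 6, Myh6 had between 0 and 0.115 CPM in the other libraries.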

How the data were processed

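RNA was sequenced from 12 libraries of MPC5 cells, 6 with empty vector and 6 with a Sparc plasmid. The authors deposited whole-number read counts for 55487 genes, used as deposited, and FPKM values for the same genes, used only to compare levels between genes. Per the submitters' processing notes, the authors' tools included HISAT2, Bowtie2, Picard, SAMtools, featureCounts and edgeR, with no versions. Genome build, annotation and strand setting were not given in the sources used here, so positions and gene classes come from GENCODE M21 (GRCm38) and are not the authors' own. Symbols matched 55227 IDs by reference tables, and 260 had none.

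The members and lists were chosen with earlier results of these data known. Roles and tissues were assigned by hand, and motifs, count bins and the comparison with silent genes that stayed low were chosen after the members were known. Named genes were Adgrb1, Sncaip and Cnga3, the members ranked highest by count or FPKM, those with 0 vector counts, those in a list, near a threshold, near another member or led by 1 library, and others given for their role.

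CPM used TMM-scaled library sizes. A ratio of summed counts was scaled by the library totals without TMM factors, with an exact 95% conditional interval for counting error only. A ratio against 0 used a floor of 3 counts over the group. The comparison of all genes used edgeR 4.0.16 in R 4.3.3 (filterByExpr, robust glmQLFit, glmQLFTest, two-sided Benjamini-Hochberg adjusted p under 0.05), which was tested on simulated data. Fitted log2 fold changes given for all members used no filter and a prior count of 2. Neighbours were taken by the distance between gene bodies. Promoter windows are from RefSeq (GRCm38.p6). A window can lie downstream of the GENCODE 5′ end of its gene, as for Krt14, Ttc39d, Trpm2 and Myh6. How many windows do so is not given here, and the CpG and motif shares include them. Alternatives were DESeq2 1.42.0, RLE factors, other filters, thresholds and neighbour rules, a replicate block and each library left out in turn.

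Samples of the same replicate number did not deviate together, with correlations of deviations from group means between -0.0106 and 0.0147, so the numbers were not taken as pairs. Reads carry no molecular identifiers. Some genes that the naming rule took are not reported here.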

Additional observations from a re-analysis of the deposited data

Results flagged for a closer look

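Of 73 sets of 6 libraries examined for 1 outlying library, 9 had one. Chance gives about 1 in 20, but some genes were named because 1 library led them (Myh6, Mesp2 and Prr15l), so their flags follow from that choice. Over all 214 members, 21 had an outlying SPARCoe library. In 8 of them the value is a named member's CPM in SPARCoe. Adamts18 stood at 1.92 in replicate 4 and at 1.03 to 1.29 in the other 5 libraries. Vwf was low in replicate 2, at 0.201 against 0.421 to 0.552. Arhgef33, a guanine nucleotide exchange factor, stood at 0.63 in replicate 2 against 0.358 to 0.429. Scn4b, a sodium channel subunit with 0 vector counts, stood at 0.715 in replicate 1 against 0.197 to 0.287. Rbfox3 stood at 0.501 in the same library against 0.169 to 0.287. Mesp2 stood at 0.713 in replicate 4 against 0.0954 to 0.276, and Prr15l at 0.595 in replicate 5 against 0.147 to 0.31. Myh6 stood at 1.15 in replicate 6, from 47 counts, against 0 to 0.115. These outlying values were spread over 5 of the 6 SPARCoe libraries. The ninth is the number of members with a count in a vector library, 86 in replicate 4, the library with the lowest total, against 107 to 119 in the others. Whether depth accounts for that number was not tested.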

How the results depend on the processing

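The number of members follows its thresholds. It was 214 as chosen, 120 with at most 10 vector counts and 51 with at least 120 SPARCoe counts, and 192 with sums scaled to the mean library total. Leaving out 1 library gave 200 to 227. The median log2 fold change of the members was 2.38 with a prior count of 2 and 4.1 with a prior count of 0.25, so it is not a measure of size for genes at or near 0, and it was 2.37 to 2.43 with 1 library left out. The share of members with every SPARCoe library above every vector library was 81.3% in CPM, 79% in raw counts and 81.8% to 84.6% with 1 library left out. Of the members' promoter windows 32.7% had a CpG ratio of 0.6 or more, and 61.2% had a G plus C content of 55% or more. Genes called by edgeR numbered 4571, 4276 to 4476 with 1 library left out, and 4144 to 5344 under DESeq2, RLE factors or other filters. Neighbours called higher numbered 59 of 207 (28.5%), 57 to 60 with 1 library left out and 58 by DESeq2. On the same strand they numbered 43 of 204 (21.1%), and within 50 kb 45 of 168 (26.8%). Among all tested non-members the share was 14.5%. With the replicate number as a block, 4663 genes and 60 neighbours were called, though the numbers share no batch in the labels. With a median of 89 counts over 6 libraries, differences between single SPARCoe libraries are poorly resolved.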

Other observations

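Families of silent genes, grouped by the start of the symbol, differed in how many faint reads they had with the Sparc plasmid. Solute carriers (symbols starting Slc) had 144 genes near silent in vector, of which 7 were members, and 97 had more reads per total count in SPARCoe against 13 with fewer. Their summed counts were 485 in vector and 1871 in SPARCoe. Of 10 near-silent genes starting Scn, mostly sodium channels, 8 had more reads and 1 had fewer. The vomeronasal receptors (Vmn) had 325 silent genes with 144 and 250 summed counts and the protocadherins (Pcdh) had 41 with 211 and 216, and neither held a member. These families were picked after their values were seen and the differences between them were not tested.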
